A study of Mus musculus with 39 samples.

Results

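Lymph node dendritic cells (DC) taken 20 h after immunization with nanoparticles holding ovalbumin (OVA) and CpG were compared with DC taken 20 h after nanoparticles holding bovine serum albumin (BSA) and CpG. The groups were chosen from the labels alone and held 5 libraries each, 10 of the 39 libraries of the series. A further 5 libraries of DC from non-immunized mice stood in the same count table and served as the baseline. All 15 came from wild-type C57BL/6 mice of 8 to 12 weeks, injected under the skin of the hock where immunized, and DC of popliteal and inguinal nodes were enriched by negative selection and sorted. The particles of the series also carried a rhodamine dye. CpG, an agonist of Toll-like receptor 9, was common to the OVA and BSA particles, so the label that differs is the protein. The series is described as one of mice engrafted with OT-I and OT-II cells, T cells whose receptors recognize OVA peptides, and it asked how DC respond early to meeting such cells. The labels of these libraries do not say per sample whether OT cells had been given. Whether each replicate was its own mouse is not stated either, and p-values here speak only of the spread between the sampled libraries.

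Interferon-gamma is secreted by activated T cells and natural killer (NK) cells. It signals through the kinases Jak1 and Jak2 to transcription factors that bind gamma-activated sites in DNA. Type I interferons, which are released after Toll-like receptor ligation, signal through a complex with Stat2 and Irf9 that binds interferon-stimulated response elements. Immunity-related GTPases and guanylate-binding proteins are classical targets of these pathways and act on the vacuoles of intracellular pathogens, and many genes respond to either kind of interferon.

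The promoters of 4 genes that the results return to are shown so that a reader can see which interferon-type motifs stand beside their starts, as 300 bases from 250 before to 50 after the annotated start of each gene (RefSeq, build GRCm38.p6, sense strand of the gene). Capitals mark matches, on either strand, to the gamma-activated site TTCNNNGAA or to the response element core, TTTC and TTTC with any 2 bases between them, which reads as GAAA and GAAA on the other strand. Igtp lies at chr11:58199306-58199605 on the plus strand, Irgm1 at chr11:48871371-48871670 on the minus strand, Gbp2 at chr3:142620413-142620712 on the plus strand and Cd274 at chr19:29367188-29367487 on the plus strand.
Igtp: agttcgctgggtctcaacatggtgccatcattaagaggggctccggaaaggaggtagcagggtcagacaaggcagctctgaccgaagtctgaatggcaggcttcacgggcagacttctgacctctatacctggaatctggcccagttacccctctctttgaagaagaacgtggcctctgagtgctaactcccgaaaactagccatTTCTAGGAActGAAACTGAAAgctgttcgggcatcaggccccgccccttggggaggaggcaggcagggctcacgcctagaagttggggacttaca
Irgm1: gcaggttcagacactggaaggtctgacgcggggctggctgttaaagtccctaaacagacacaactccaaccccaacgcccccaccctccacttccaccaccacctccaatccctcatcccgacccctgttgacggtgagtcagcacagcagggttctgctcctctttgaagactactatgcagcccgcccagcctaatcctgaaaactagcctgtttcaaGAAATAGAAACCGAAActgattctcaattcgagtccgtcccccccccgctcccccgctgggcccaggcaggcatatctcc
Gbp2: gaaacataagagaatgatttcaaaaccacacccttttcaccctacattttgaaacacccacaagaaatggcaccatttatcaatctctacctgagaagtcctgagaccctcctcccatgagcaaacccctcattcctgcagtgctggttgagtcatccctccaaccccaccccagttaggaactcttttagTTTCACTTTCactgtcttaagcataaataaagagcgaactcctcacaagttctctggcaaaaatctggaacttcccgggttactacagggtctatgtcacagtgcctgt
Cd274: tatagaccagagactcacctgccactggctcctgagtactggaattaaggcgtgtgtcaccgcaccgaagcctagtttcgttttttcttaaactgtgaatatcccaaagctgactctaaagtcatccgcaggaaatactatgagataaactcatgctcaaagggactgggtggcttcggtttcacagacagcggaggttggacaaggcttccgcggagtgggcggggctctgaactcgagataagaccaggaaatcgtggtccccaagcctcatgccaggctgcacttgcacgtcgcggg
The Igtp window held the gamma-activated site TTCTAGGAA, which began 45 bases before the start, and the element GAAACTGAAA, which began 34 bases before it. In Irgm1 the capitals cover a pair of overlapping elements, GAAATAGAAA and GAAACCGAAA, and in Gbp2 they cover TTTCACTTTC, which began 59 bases before the start. No match to these letters stood in the Cd274 window. Among 27025 genes with a promoter window, 9.55% held a match to the gamma-activated site and 3.99% a match to the response element core. A match is a description of the letters and not a measured binding site. A window was at hand for 6 of the 8 immunity-related GTPases tested and for 4 of the 7 guanylate-binding proteins, under 80% of each list, so a share over these lists would be void and is not given.

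Reads of poly(A) RNA were counted per gene, and levels are given as CPM, a gene's share of its library's counts times 1e+06. Total counts ran from 917305 to 2052904 in the OVA libraries, from 1203390 to 1745714 in the BSA libraries and from 367209 to 1638434 in the non-immunized libraries. A count of 0 in a library allows at most 1.46 to 3.27 CPM with OVA and 1.72 to 2.49 CPM with BSA, which covers counting error only. Y-linked transcripts summed to over 20 CPM in OVA replicates 3 and 4, in no BSA library and in 3 of the 5 non-immunized libraries. OVA replicate 3 lay apart on the third principal component, which held 11.2% of the variance, and had the lowest quality weight in limma, 0.313. Non-immunized replicate 3 had the fewest counts. The cells carried DC transcripts: Flt3, the receptor for a DC growth factor, averaged 404 ± 57.2 CPM with OVA and 364 ± 24.4 CPM with BSA, and the class II chain H2-Aa 8128 ± 1971 CPM with OVA and 8724 ± 1372 CPM with BSA (SD, n = 5 each). Cd3e, part of the T cell receptor complex, reached at most 3.54 CPM with OVA and 1.59 CPM with BSA. Other T cell transcripts stood higher, and Thy1 reached 35.4 CPM with OVA and 20.8 CPM with BSA. All 18 T cell markers summed to 161 to 340.5 CPM with OVA and 209 to 269 CPM with BSA.

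Most interferon-induced genes tested had a positive log2 change of OVA over BSA, but no single gene was called at an adjusted p of 0.05. The edgeR quasi-likelihood test with Benjamini-Hochberg adjustment over 9159 genes called 0 (0%), with a smallest adjusted p of 0.5275. At an unadjusted p under 0.05 stood 561 genes (6.13%), of which 328 were higher with OVA (3.58%) and 233 lower (2.54%). That number was 975 without BSA replicate 1 and 356 without BSA replicate 4. DESeq2 likewise called 0 genes, with a smallest adjusted p of 0.101 and 471 genes at an unadjusted p under 0.05. All 5 OVA libraries lay above all 5 BSA libraries for 33 genes (0.36%) and below them for 30 genes (0.328%). Whether these numbers exceed those of randomly labelled libraries was not tested, so full separation of a gene is a description only.

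In the authors' deposited table, a total of 6 genes had an adjusted p under 0.05, each higher with OVA. They were Wars and Sp110 at 0.0242, and Igtp, Parp9, Cd274 and Gbp2 at 0.0421, with log2 changes of 0.77 to 1.40 in the authors' deposited table. It gives an adjusted p for 4048 genes. Run on those 4048 genes, an alternative chosen after seeing the data, DESeq2 called 2 genes, Sp110 and Wars, both at an adjusted p of 0.0466, and edgeR called 0. Of the 7 genes of smallest p in edgeR over all 9159 genes, 6 were these. The seventh was Alg8, a glucosyltransferase of protein glycosylation, which was lower in all 5 OVA libraries (2.36 to 5.45 CPM) than in all 5 BSA libraries (5.82 to 13.5 CPM). Its log2 change was -1.35 ± 0.31 (SE), and it was named after its values were seen.

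**Figure D1:**
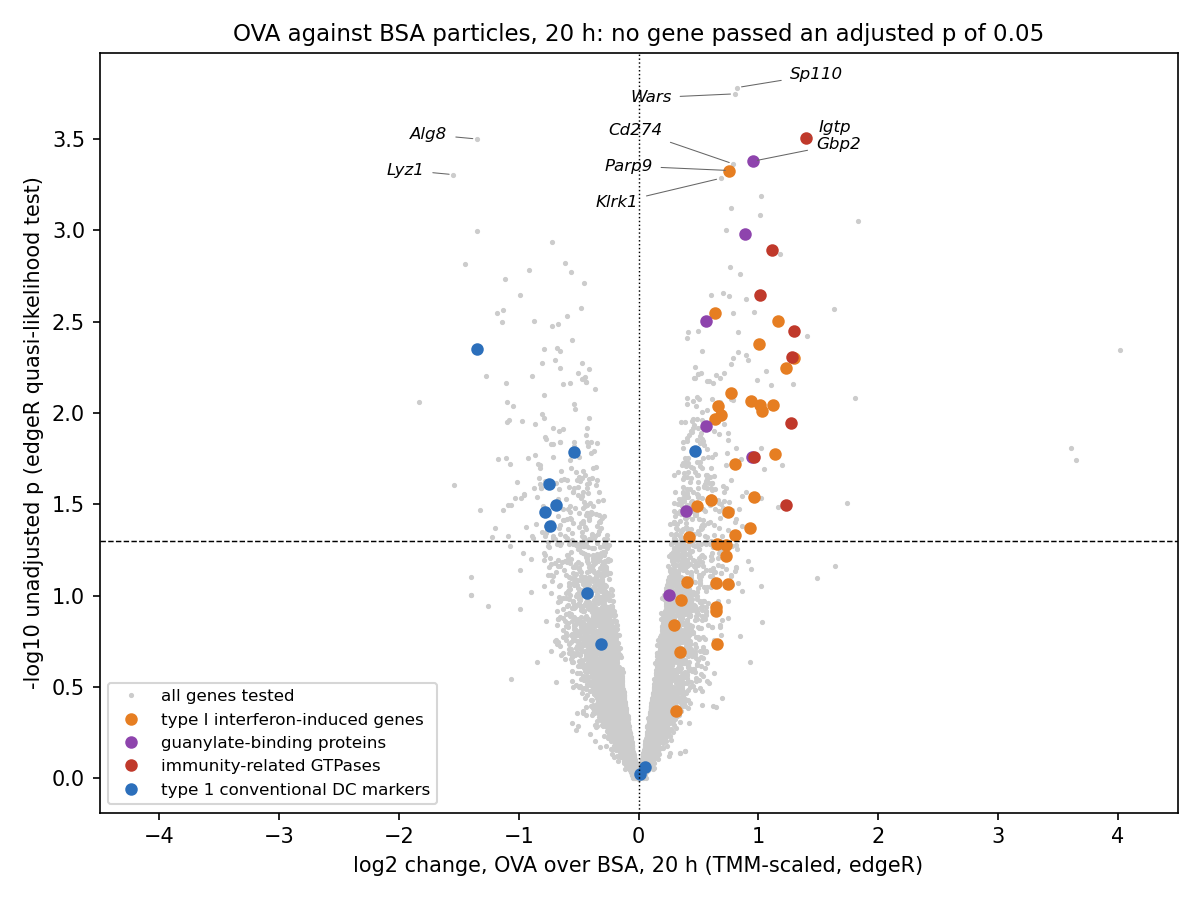
Each point is a gene, with its log2 change of OVA over BSA on the x axis and -log10 of the unadjusted edgeR p on the y axis. The dashed line marks p of 0.05, and the coloured GTPases, guanylate-binding proteins and type I interferon-induced genes all stand right of 0, while 8 of 11 type 1 conventional DC markers stand left of it.

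Igtp, an immunity-related GTPase also known as Irgm3, had 171, 213, 255, 203 and 61.9 CPM in OVA replicates 1 to 5, against 126, 35.4, 88.2, 36.6 and 49.9 CPM in BSA replicates 1 to 5. OVA replicates 1 to 4 were the 4 highest libraries, while OVA replicate 5 lay below BSA replicates 1 and 3. Non-immunized libraries had 19.2 to 29.96 CPM, below every immunized library. The log2 change of OVA over BSA was 1.40 ± 0.33 (SE), with a 95% interval of 0.72 to 2.08 and an adjusted p of 0.5275 in edgeR. Gbp2, a guanylate-binding protein, had 502, 763, 846, 810.2 and 299 CPM with OVA, against 424, 222, 369, 271 and 355 CPM with BSA. OVA replicates 1 to 4 again lay above every BSA library and OVA replicate 5 inside their range. The log2 change was 0.96 ± 0.23 (SE, adjusted p of 0.5275 in edgeR).

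Cd274 encodes PD-L1, a ligand that restrains T cells. It had 160.3, 201, 224, 232 and 115 CPM with OVA, against 143, 88.2, 103, 106 and 96.8 CPM with BSA. OVA replicate 5 was the one OVA library below the highest BSA library, replicate 1. The non-immunized mean was 95.4 ± 18.7 CPM (SD, n = 5), and the log2 change of OVA over BSA was 0.79 ± 0.19 (SE). Wars, the tryptophanyl-tRNA synthetase, had 167, 241, 284, 255 and 132 CPM with OVA, against 139, 118, 150.1, 96.3 and 113 CPM with BSA. The same library fell inside the BSA range, and the log2 change was 0.80 ± 0.18 (SE). Sp110, a nuclear body protein, averaged 145 ± 38.8 CPM with OVA and 81.9 ± 17.3 CPM with BSA (SD, n = 5 each), a log2 change of 0.83 ± 0.18 (SE). Each of these 3 genes had an adjusted p of 0.5275 in edgeR.

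**Figure D2:**
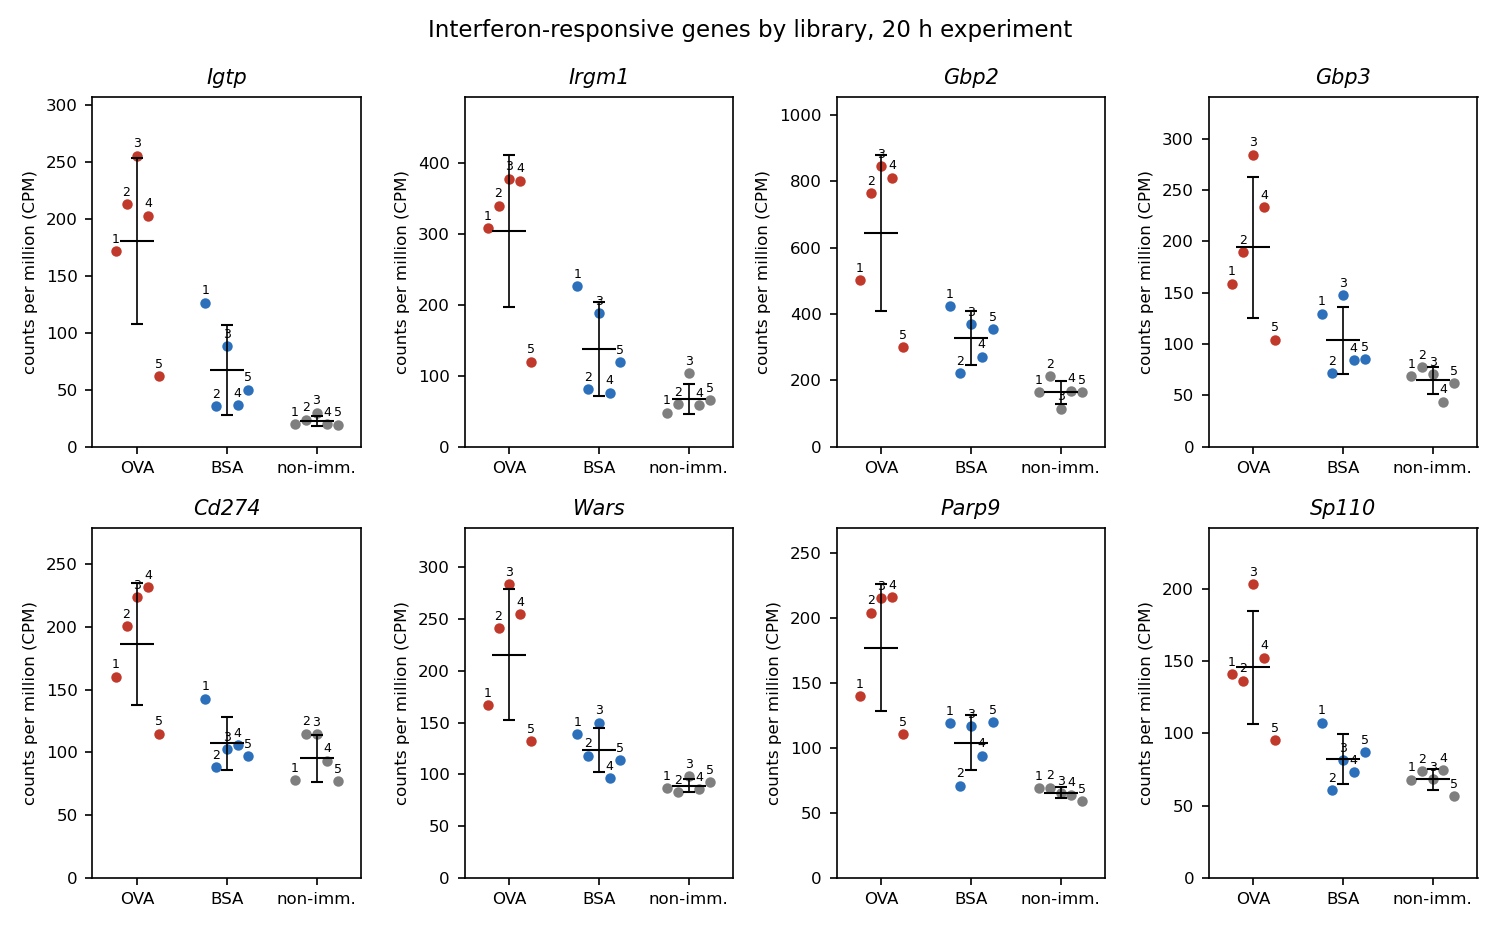
CPM of 8 interferon-responsive genes in each library, with OVA, BSA and non-immunized libraries from left to right, numbers for the replicate, and the mean ± SD in black. In all 8 panels OVA replicate 5 is the lowest OVA library and lies within the BSA range.

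Genes that carry interferon signals were mostly positive. Of 16 signalling genes, 13 had a positive log2 change, where 50.3% of all genes did, and 5 were higher with OVA at an unadjusted p under 0.05. These were 2 when any one of OVA replicates 3 and 4 and BSA replicates 2 and 4 was left out, and 3 without BSA replicate 3 or 5. Their median log2 change was 0.22, against 0.0018 over all genes tested. Stat2, a transcription factor of the type I pathway, had 229, 335, 289.8, 235 and 121 CPM with OVA, against 217, 89.0, 159, 93.1 and 139 CPM with BSA. OVA replicates 1 to 4 lay above all BSA libraries and OVA replicate 5 inside their range, and the log2 change was 0.77 ± 0.25 (SE, adjusted p of 0.635 in edgeR), the smallest p of the list. Irf9, the DNA-binding part of that complex, had a log2 change of 0.46 ± 0.20. Irf1, a factor induced by interferons, had 0.36 ± 0.17, and Socs1, a feedback inhibitor of the Jak kinases, 0.50 ± 0.24. The interferon-gamma receptor chains Ifngr1 and Ifngr2 had -0.17 ± 0.21 and -0.08 ± 0.13, the type I receptor chains Ifnar1 and Ifnar2 0.19 ± 0.16 and -0.11 ± 0.15, and the kinases Jak1 and Jak2 0.10 ± 0.15 and 0.18 ± 0.14.

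All 8 immunity-related GTPases that passed the filter on low counts, of 12 in the table, were higher with OVA at an unadjusted p under 0.05. Their log2 changes ran from 0.96 to 1.40, with a median of 1.25. Of all genes tested 3.58% were higher at that level, the share to set beside the same counts of the other lists. Without OVA replicate 2, OVA replicate 4 or BSA replicate 2, the GTPases higher at that level numbered 6. Irgm1, a regulator of the family, had 308, 340.1, 378, 375 and 120.03 CPM with OVA, against 226, 81.1, 188, 76.4 and 119.5 CPM with BSA, a log2 change of 1.11 ± 0.30. Irgm2, a further regulator, had a log2 change of 1.01 ± 0.29, and Iigp1, an effector that attacks parasite vacuoles, 1.27 ± 0.46. Tgtp1 and Tgtp2 are near-identical copies whose reads the counting could split. They averaged 84.4 and 106 CPM with OVA, against 33.8 and 42.1 CPM with BSA. The family summed to 288 CPM in OVA replicate 5, within the 236 to 647 CPM of the BSA libraries, and to 842 to 1232 CPM in the other OVA libraries. Non-immunized libraries had 126 to 269.6 CPM, and BSA replicates 2 and 4, at 236 and 247 CPM, lay within that range.

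All 7 guanylate-binding proteins that passed the filter, of 11 in the table, had a positive log2 change, and 6 were higher with OVA at an unadjusted p under 0.05. Their median log2 change was 0.56. The number at that level was 4 without OVA replicate 2, OVA replicate 4 or BSA replicate 2, where 3.58% of all genes were higher in the main fit. Gbp3 had 159, 189.7, 284, 233 and 104 CPM with OVA, against 129.6, 71.6, 147, 84.4 and 85.5 CPM with BSA, a log2 change of 0.89 ± 0.24. OVA replicate 5 was the lowest OVA library here too. Gbp5, known for its part in inflammasome assembly, averaged 379 ± 119.8 CPM with OVA and 256 ± 62.2 CPM with BSA (SD, n = 5 each), and Gbp9 had the smallest log2 change, 0.25 ± 0.15. Members of this family are close paralogs, so reads may have been split between them.

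The 36 type I interferon-induced genes that passed the filter, of 38 in the table, all had a positive log2 change, and 23 were higher with OVA at an unadjusted p under 0.05, or 15 without BSA replicate 2. Their median was 0.73 and the range 0.30 to 1.30. Parp9, an ADP-ribosyltransferase family member, had the smallest p of the list and averaged 177 ± 48.7 CPM with OVA and 104 ± 21.4 CPM with BSA (SD, n = 5 each), a log2 change of 0.76 ± 0.18. Ifit1, which binds foreign RNA, had 206, 297, 195, 219 and 87.5 CPM with OVA, against 106, 38.6, 175, 55.7 and 115 CPM with BSA. Non-immunized libraries had 9.13 to 21.8 CPM of Ifit1, so for this gene every BSA library lay above the baseline too. Over the 36 genes the median log2 level, relative to the BSA mean, was -1.47 to -0.88 in non-immunized libraries. BSA replicate 2, at -1.055, lay inside that range, while BSA replicate 1 stood at 0.74. Oas2, a sensor of double-stranded RNA, had the largest log2 change of the list, 1.30 ± 0.42. Isg15, a ubiquitin-like modifier, had 1064, 1428, 1565, 1248 and 756 CPM with OVA, against 1698, 193, 909.7, 388 and 580.2 CPM with BSA. The highest of these 10 libraries was BSA replicate 1, and the log2 change was 0.65 ± 0.39. Ifnb1, which encodes interferon-beta, had 0 counts in every library.

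**Figure D3:**
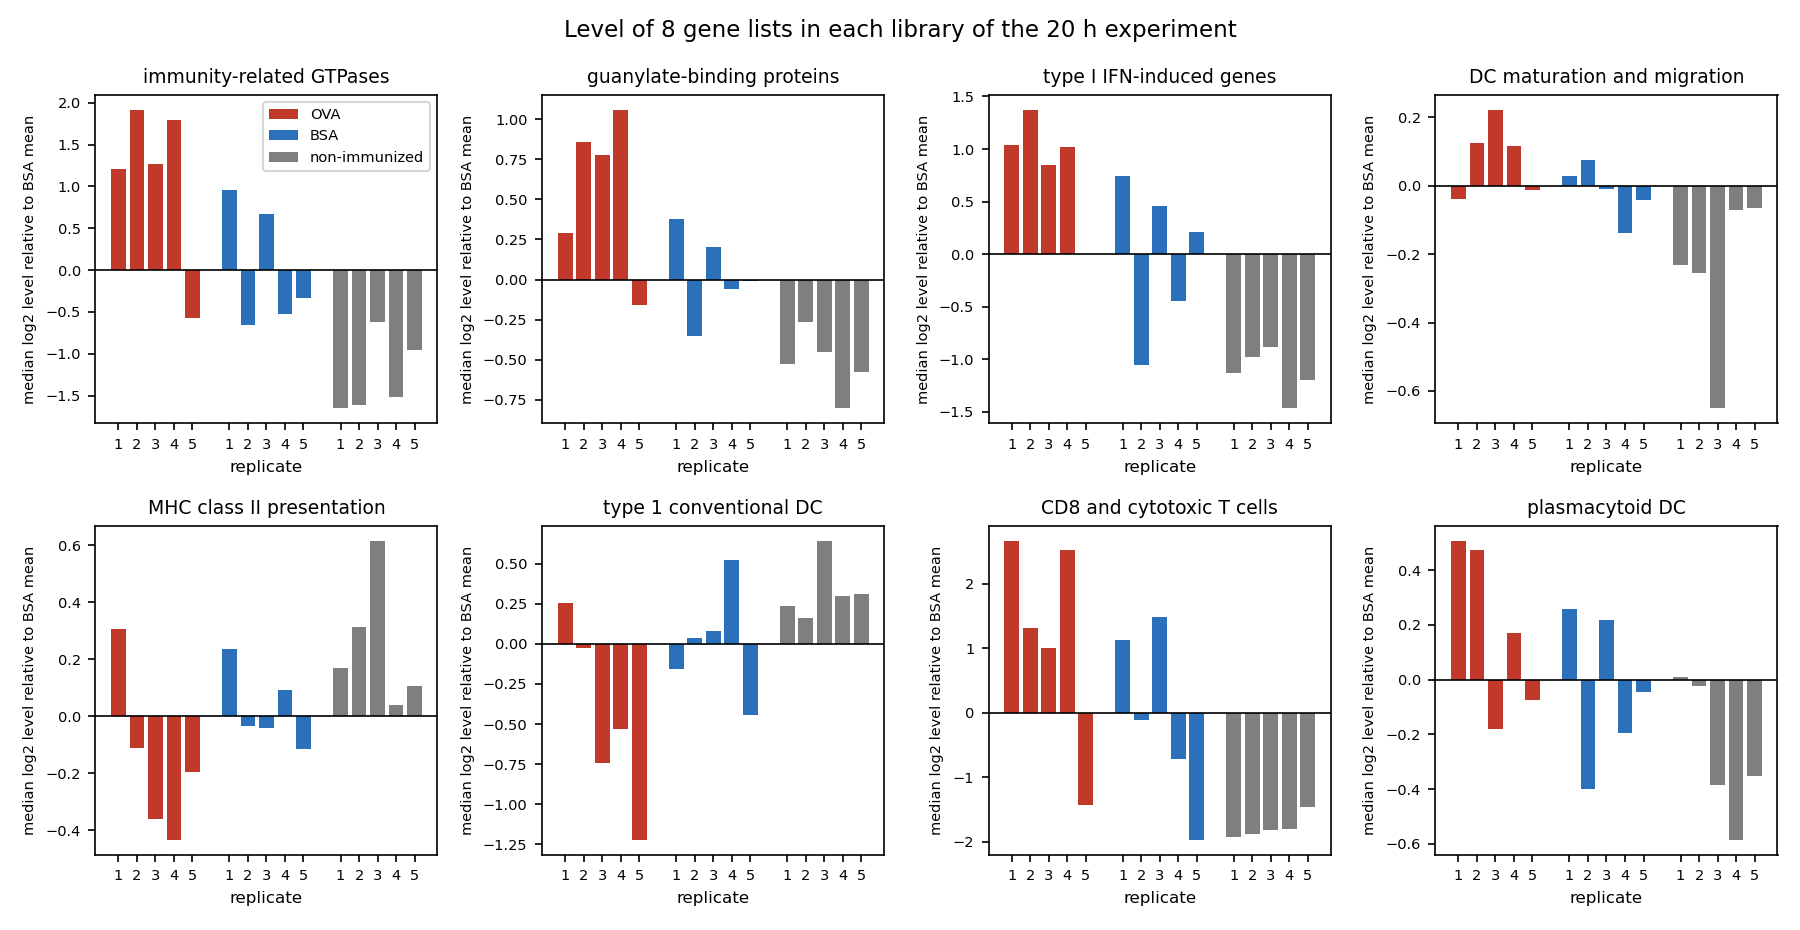
Bars give, per library, the median over the tested members of a list of log2(CPM + 1) relative to the mean of the BSA libraries, with OVA, BSA and non-immunized libraries from left to right. For the GTPases OVA replicates 1 to 4 stand at 1.21 to 1.91 and OVA replicate 5 at -0.58, while BSA replicates 1 and 3 stand at 0.96 and 0.67.

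Other genes known to be induced by interferon-gamma included 6 that were higher with OVA at an unadjusted p under 0.05, of 23 that passed the filter. Of the 23, 20 had a positive log2 change, and the median was 0.35. The 6 were Wars, Cd274, Cxcl9, Il18bp, Nlrc5 and Batf2. The number was 10 without BSA replicate 1, 2 without BSA replicate 2 or 4, and 3 without OVA replicate 4. Cxcl9, a ligand of the T cell chemokine receptor CXCR3, had 384, 429.5, 189, 357 and 89.4 CPM with OVA, against 278, 114, 183, 149.6 and 123 CPM with BSA. Cxcl10, a further CXCR3 ligand, had 515, 496, 230.4, 322 and 90.7 CPM with OVA, against 285, 52.7, 214, 86.0 and 82.5 CPM with BSA. The groups overlapped for both ligands, and their log2 changes were 0.75 ± 0.32 and 1.17 ± 0.51. Nlrc5, the activator of class I genes, had a log2 change of 0.31 ± 0.14, and Il18bp, which neutralizes interleukin-18, 0.47 ± 0.19. Icam1, Casp1, Pim1 and Fgl2 had log2 changes between -0.09 and 0.12. Ido1 and Nos2 did not pass the filter on low counts.

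Of 17 class I genes of antigen presentation tested, 13 had a positive log2 change, with a median of 0.13, and Tap1 and Tap2, the peptide transporter, were the 2 members higher at an unadjusted p under 0.05. Tap1 averaged 1045 ± 206 CPM with OVA and 759.6 ± 159 CPM with BSA (SD, n = 5 each), a log2 change of 0.45 ± 0.16. The 5 immunoproteasome subunits had log2 changes of -0.08 to 0.14, the highest in Psmb10 (0.14 ± 0.13), and the 14 constitutive subunits a median of -0.09. Psma3, a constitutive subunit, averaged 25.7 ± 5.53 CPM with OVA and 37.7 ± 8.90 CPM with BSA (SD, n = 5 each), a log2 change of -0.54 ± 0.20. Class II genes had a median of -0.10 over 13 genes, and 1 of them, H2-Ob, part of an inhibitor of peptide loading, was lower at an unadjusted p under 0.05 (-0.69 ± 0.30). The class I genes of the H2-Q and H2-T clusters are paralogs with shared reads, so their values are uncertain.

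Maturation and costimulation genes differed among themselves. Stat4, a transcription factor of interleukin-12 signalling, had the smallest p of the maturation list, with 178, 255, 127, 194 and 167 CPM with OVA, against 191, 65.3, 96.8, 103 and 101 CPM with BSA. All 5 OVA libraries lay above BSA replicates 2 to 5, and BSA replicate 1 lay above OVA replicates 1, 3 and 5. Its log2 change was 0.71 ± 0.26 (SE, adjusted p of 0.720 in edgeR). Cd86, a ligand of CD28, averaged 119 ± 32.9 CPM with OVA and 108 ± 10.6 CPM with BSA (SD, n = 5 each), a log2 change of 0.13 ± 0.19. Cd80, the other CD28 ligand, had 14.9, 31.6, 30.2, 34.7 and 16.0 CPM with OVA, against 28.3, 10.2, 13.7, 14.3 and 17.4 CPM with BSA. Its groups overlapped, and its log2 change was 0.60 ± 0.31. Cd40, the receptor for T cell help, had 1016 to 1150.1 CPM with OVA and 840.5 to 1047 CPM with BSA, a log2 change of 0.23 ± 0.16. The maturation marker Cd83 had a log2 change of 0.23 ± 0.15, and Ccr7, the receptor that brings DC into the T cell zone, 0.42 ± 0.19, with a 95% interval of 0.034 to 0.81. Of 9 costimulatory ligands 7 had a positive log2 change, with a median of 0.13 and 0 at an unadjusted p under 0.05. Over 24 maturation and migration genes 15 were positive and 4 higher at an unadjusted p under 0.05, with a median of 0.11. Coinhibitory ligands had a median of -0.02 over 7 genes, with Cd274 the 1 member at that level.

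Of 10 cytokine genes tested 8 had a positive log2 change, with a median of 0.39, and 1, Il18, was lower at an unadjusted p under 0.05. Il12b, a subunit of interleukin-12, had 139.9, 153, 224, 305 and 74.7 CPM with OVA, against 179, 99.2, 117, 119 and 69.6 CPM with BSA. Il15, which sustains CD8 T cells and NK cells, averaged 338 ± 127 CPM with OVA and 259 ± 36.1 CPM with BSA (SD, n = 5 each). Both overlapped between the groups, with log2 changes of 0.61 ± 0.29 and 0.39 ± 0.20. The chemokine Ccl17 was lower in all 5 OVA libraries (114 to 153 CPM) than in all 5 BSA libraries (168 to 213 CPM). Its log2 change was -0.49 ± 0.38, and the 9 chemokines tested had a median of -0.06.

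The other pathway lists had medians between -0.25 and 0.22. Immediate early genes had a median of 0.22 over 17 genes, with Klf6, Zfp36 and Junb higher at an unadjusted p under 0.05. STAT5-induced genes had 0.19 over 13 genes, with Gzmb the 1 member at that level. The NF-kB pathway had 0.14 over 23 genes, and Nfkb1, which encodes the p105 precursor, was higher in all 5 OVA libraries (112 to 164 CPM) than in all 5 BSA libraries (94.5 to 105 CPM), with an adjusted p of 0.635 in edgeR. Non-immunized libraries had 108 to 126 CPM of Nfkb1, above all BSA libraries and overlapping the OVA libraries. Oxidative phosphorylation genes had -0.09, with 6 of 34 positive. Cox7c, a subunit of respiratory complex IV, had the smallest p of them and averaged 25.7 ± 7.49 CPM with OVA and 40.8 ± 11.8 CPM with BSA (SD, n = 5 each), a log2 change of -0.63 ± 0.21. Cholesterol synthesis genes had -0.25, with 4 of 17 positive, and its enzymes Mvd and Sqle were lower at an unadjusted p under 0.05 (-0.60 ± 0.18 and -0.67 ± 0.24). Cytosolic aminoacyl-tRNA synthetases had 0.03 over 20 genes, and Wars was the 1 member at that level. Cell cycle genes had -0.25 over 23 genes, with 1 lower and 1 higher at an unadjusted p under 0.05. The lower, Stmn1, which destabilizes microtubules, had 9.92 to 16.5 CPM with OVA and 15.8 to 24.1 CPM with BSA, a log2 change of -0.67 ± 0.20. The higher, Mcm4, had 24.1 to 28.3 CPM with OVA, all above the 14.2 to 21.5 CPM with BSA, a log2 change of 0.51 ± 0.23. Glycolysis genes had 0.06 over 14 genes, and the unfolded protein response -0.06 over 13, with 4 positive. At an unadjusted p under 0.05, 2 of the 13 were lower and 1 higher. Sdf2l1 of this list was lower in all 5 OVA libraries (27.3 to 50.4 CPM) than in all 5 BSA libraries (50.7 to 70.8 CPM). Edem1, which helps clear misfolded glycoproteins, was higher in all 5 OVA libraries (125 to 179 CPM) than in all 5 BSA libraries (99.7 to 124 CPM), a log2 change of 0.37 ± 0.14.

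**Figure D4:**
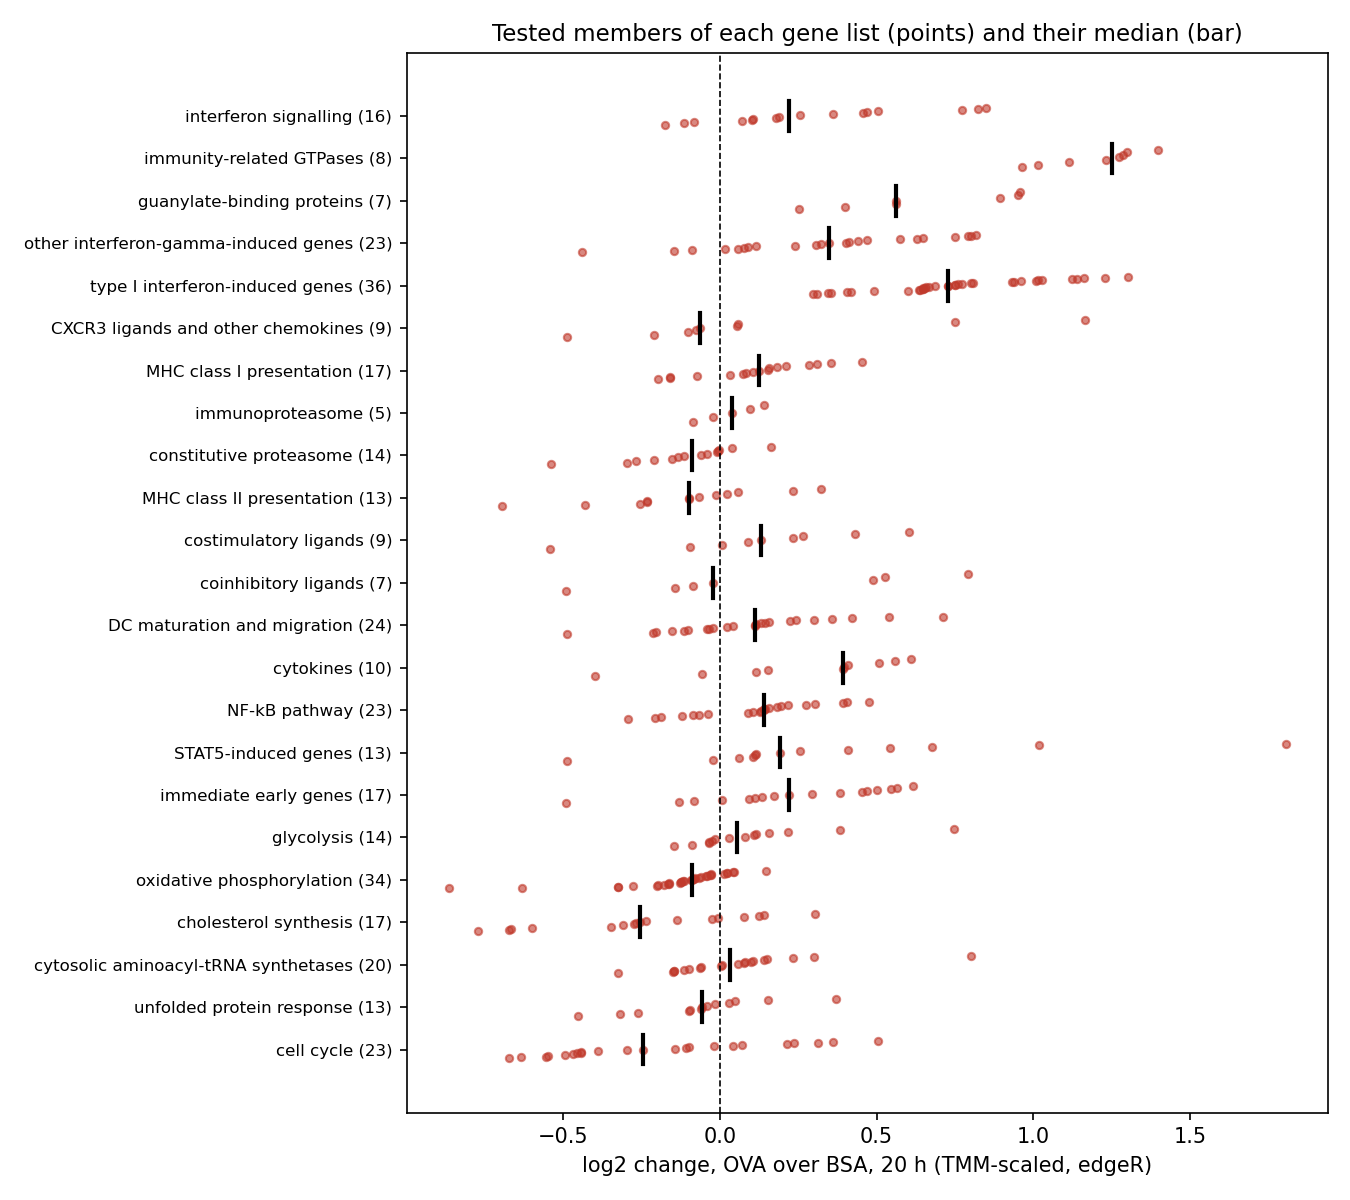
Points are the log2 changes of OVA over BSA of the tested members of each list, with the number tested in brackets and the median as a bar. The GTPases, guanylate-binding proteins and type I interferon-induced genes lie wholly above 0, with medians of 1.25, 0.56 and 0.73, and every other pathway list has members on both sides of 0.

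Transcripts of cytotoxic lymphocytes varied between the libraries as well. Over the 4 cytotoxic markers tested the median log2 level, relative to the BSA mean, was 2.66, 1.31, 0.999, 2.52 and -1.43 in OVA replicates 1 to 5, against 1.12, -0.11, 1.49, -0.73 and -1.97 in BSA replicates 1 to 5. OVA replicates 1 and 4 were above every BSA library, where for the GTPases OVA replicates 1 to 4 were. OVA replicate 5 was the lowest OVA library. It was also the lowest for the GTPases (-0.58), the general T cell markers (-0.92) and the monocyte and macrophage markers (-0.62). Of 9 CD8 and cytotoxic T cell markers 4 passed the filter, all 4 with a positive log2 change, and Gzmk had 0 counts in all 10 libraries. Their summed level was 14.05 to 258 CPM with OVA, 10.6 to 99.7 CPM with BSA and 4.38 to 46.3 CPM in non-immunized libraries. Ifng, the gene of interferon-gamma, had 36.9, 1.09, 18.0, 169.98 and 0.638 CPM with OVA, against 11.6, 3.15, 49.8, 1.59 and 0.757 CPM with BSA. OVA replicates 2 and 5, in each of which the Ifng level stood for 1 count, had 213 and 61.9 CPM of Igtp. Gzmb, a protease of cytotoxic cells, had 32.2, 8.72, 11.2, 34.0 and 1.28 CPM with OVA, against 9.14, 3.15, 9.74, 1.59 and 0 CPM with BSA, a log2 change of 1.80 ± 0.62. The 18 general T cell markers summed to 161 to 340.5 CPM with OVA and 209 to 269 CPM with BSA, and the 7 that passed had a median log2 change of 0.07. Tcf7, a factor of T cell development and the most abundant of them, had 98.3 to 267 CPM with OVA and 124 to 165 CPM with BSA, a log2 change of 0.26 ± 0.19. The 10 NK cell markers summed to 58.9 to 126 CPM with OVA and 47.7 to 85.9 CPM with BSA. Of these 4 passed the filter, 2 with a positive log2 change, and the median was 0.24. Klrd1 of this list averaged 18.4 ± 12.4 CPM with OVA and 17.6 ± 5.28 CPM with BSA (SD, n = 5 each). Its log2 change was -0.02 ± 0.44. Klrk1, a receptor shared by NK and CD8 T cells, had 47.2 to 77.4 CPM in the OVA libraries, all above the 33.3 to 45.7 CPM of the BSA libraries, with an adjusted p of 0.5275 in edgeR. Non-immunized libraries had 41.1 to 52.6 CPM of Klrk1, overlapping both groups. The part of these cells in the interferon values was not tested.

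Markers of type 1 conventional DC, the cells that cross-present antigen to CD8 T cells, were mostly lower with OVA. Of 11 tested, 6 were lower and 1, Irf8, higher at an unadjusted p under 0.05, with a median of -0.54. Of all genes tested 2.54% were lower and 3.58% higher at that level. The median log2 level, relative to the BSA mean, was 0.26, -0.02, -0.74, -0.53 and -1.22 in OVA replicates 1 to 5. BSA libraries had -0.44 to 0.52, so OVA replicates 1 and 2 lay inside their range and OVA replicates 3, 4 and 5 below it. Xcr1, their chemokine receptor, had 41.7, 24.0, 14.6, 15.6 and 12.1 CPM with OVA, against 27.4, 52.7, 19.5, 47.0 and 26.5 CPM with BSA. OVA replicate 1 was the highest OVA library and OVA replicate 5 the lowest. Clec9a, their receptor for dead cells, averaged 15.7 ± 8.10 CPM with OVA and 25.3 ± 14.4 CPM with BSA (SD, n = 5 each), while Batf3, a factor these cells need, had a log2 change of 0.01 ± 0.13. The 13 markers in the table summed to 1877 to 2869 CPM with OVA and 2105 to 2844 CPM with BSA. In bulk samples fewer cells of a type and less RNA per cell cannot be told apart.

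Plasmacytoid DC markers, 8 of 11 tested, had a median of 0.11 and summed to 1082 to 1874 CPM with OVA and 624 to 1721 CPM with BSA. Most of that sum was Bst2 and Irf7, which interferon also induces, while Siglech, a defining receptor of these cells, had at most 2.55 CPM with OVA and 5.73 CPM with BSA. Monocyte and macrophage markers, 10 of 16 tested, had a median of -0.36 and summed to 231 to 425 CPM with OVA and 336 to 486 CPM with BSA, and Mertk had 0 counts in all 10 libraries. The most abundant were Apoe, a lipid carrier, at 90.5 ± 22.1 CPM with OVA and 113 ± 8.97 CPM with BSA (SD, n = 5 each), and the lysozyme Lyz2, with log2 changes of -0.31 ± 0.32 and -0.85 ± 0.36. Type 2 conventional DC markers had a median of -0.12 over 11 genes, general conventional DC markers 0.01 over 11 and Langerhans and migratory DC markers -0.08 over 8. Fscn1, an actin-bundling protein of mature DC in the last list, had 5162 to 10207 CPM with OVA and 3989 to 7122 CPM with BSA, a log2 change of 0.36 ± 0.19. B cell, plasma cell and neutrophil markers had 1 tested gene each and stromal markers 0, and erythroid markers had 0.34 over 6 genes. S100a8 of neutrophils reached at most 47.2 CPM with OVA and 7.48 CPM with BSA, and Jchain of plasma cells 22.9 CPM with OVA and 15.9 CPM with BSA. The stromal markers Sparc and Pecam1 stayed below 10 CPM in all 10 libraries. The part of these cells in the interferon values was not tested.

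Y-linked transcripts, 3 of 4 tested, were higher with OVA at an unadjusted p under 0.05, and among the OVA libraries only replicates 3 and 4 had over 20 CPM of them. They summed to 2.55 to 222 CPM with OVA and 0.757 to 9.55 CPM with BSA. With those OVA libraries left out, the median log2 change of the immunity-related GTPases was 0.97, that of the guanylate-binding proteins 0.38 and that of the type I interferon-induced genes 0.70, and 0 genes were called. Igtp then had a log2 change of 1.11, Gbp2 0.66, Cd274 0.56 and Wars 0.54. In that fit 5 of 8 GTPases and 3 of 7 guanylate-binding proteins were higher at an unadjusted p under 0.05. So were 19 of 36 type I interferon-induced genes, 6 of 23 other interferon-gamma-induced genes and 1 of 16 signalling genes. With all libraries and a term for Y-linked transcripts, these numbers were 6, 4, 14, 4 and 2. Without OVA replicate 5, edgeR called 4 genes, each higher with OVA: Igtp, Gbp2, Wars and Sp100, at an adjusted p of 0.0399. Other fits that left out 1 library went the other way. The smallest adjusted p in edgeR was 0.9996 without BSA replicate 2, 0.9994 without BSA replicate 4 and 0.854 without OVA replicate 2.

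The series holds OVA and BSA particles in DC once more, in wild-type mice labelled as given OT cells and taken at 12 h, with 2 libraries per group. Time, experiment and the labelling of OT cells differ together there and cannot be told apart. In that experiment 1 gene of 9355 was called in edgeR (0.0107%), Ctse, a cathepsin, which fell by 4.26 ± 0.40 (SE) on the log2 scale with OVA (adjusted p of 0.00422). The type I interferon-induced genes had a median log2 change of OVA over BSA of 0.64 at 12 h, with 35 of 36 positive, where 50.6% of all genes tested were. The immunity-related GTPases had a median of 0.39 at 12 h, with 9 of 9 positive, and the guanylate-binding proteins 0.30, with 7 of 8 positive. Of these lists 11, 2 and 1 genes were higher at an unadjusted p under 0.05 at 12 h, where 4.29% of all genes were higher and 4.8% lower. Igtp had 286 and 305 CPM with OVA at 12 h, against 323 and 147 CPM with BSA, so its groups overlapped. Wars had 80.0 and 83.9 CPM with OVA, against 127 and 67.2 CPM with BSA, and Cd274 126 and 130.2 CPM with OVA, against 148 and 95.5 CPM with BSA. These groups overlapped as well. The difference of OVA against BSA between 20 h and 12 h was called for 0 of 10501 genes (0%) in edgeR, and 998 genes (9.5%) stood at an unadjusted p under 0.05. DESeq2 called 1, Col27a1, and put 841 genes at an unadjusted p under 0.05. On the log2 scale the difference was 1.01 ± 0.62 (SE) for Igtp and 0.98 ± 0.40 for Wars, with adjusted p of 0.630 and 0.409 in edgeR. Leaving out BSA replicate 1 at 12 h raised the number of genes called for the difference to 125. In that fit BSA replicate 3 is the only BSA library at 12 h and is assumed to vary like the other groups, since its own group gives no spread. Leaving out OVA replicate 2 at 20 h gave 2.

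Transcripts of other cells differed between the 12 h libraries. Of 14 T cell markers tested at 12 h 13 had a negative log2 change, and 4 of them had 0 counts in both OVA libraries, so that their fitted changes depend on the prior count. Plasmacytoid DC markers had a median of -2.41 over 11 genes. Siglech had 39.6 and 15.0 CPM in the OVA libraries at 12 h, against 20.7 and 799 CPM in BSA replicates 1 and 3. Cd8b1 had 24.4 and 5.01 CPM with OVA, against 12.7 and 307 CPM with BSA. For these genes the high value stood in BSA replicate 3, which was the highest of the 4 libraries for 10 of the 11 plasmacytoid DC markers and 11 of the 14 T cell markers. Thy1, a T cell surface protein, was high in both BSA libraries, with 7.62 and 17.5 CPM with OVA, against 43.0 and 62.5 CPM with BSA. Ifng had 22.8 and 0 CPM with OVA, against 181 and 3.54 CPM with BSA, so its high value stood in BSA replicate 1. At 20 h Cd8b1 reached at most 28.3 CPM with OVA and 27.4 CPM with BSA. S100a8 of neutrophils had 2661 and 3587 CPM with OVA at 12 h, against 1817 and 789 CPM with BSA. Lyz2 had 1254 and 1306 CPM with OVA at 12 h, against 762 and 1193 CPM with BSA. Haemoglobin gene Hbb-b1 had 2024 and 3742 CPM with OVA at 12 h, against 3900 and 30.7 CPM with BSA. In the OVA and BSA libraries at 20 h, S100a8, Lyz2 and Hbb-b1 reached at most 47.2, 127 and 212 CPM. The part of these cells in the 12 h values was not tested.

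**Figure D5:**
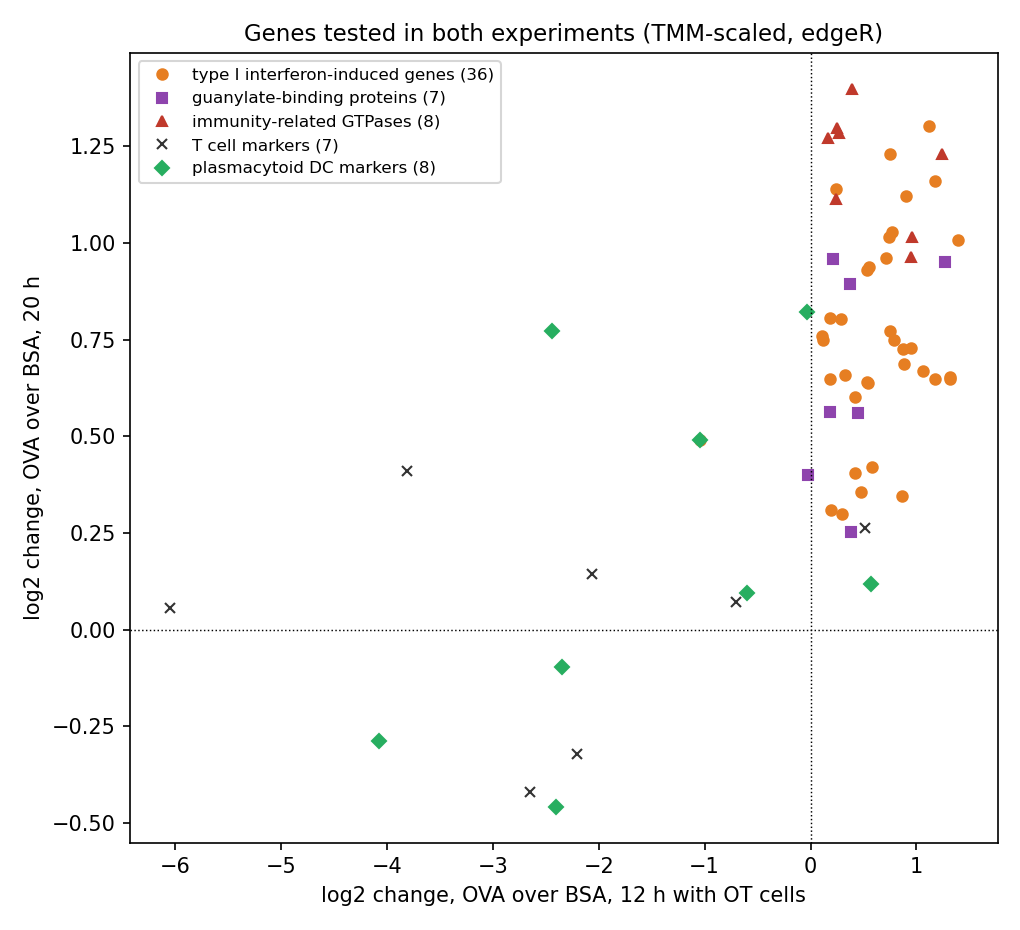
Log2 changes of OVA over BSA at 12 h with OT cells (x axis) and at 20 h (y axis) for genes tested in both experiments, by list. The GTPases lie between 0.96 and 1.40 at 20 h and right of 0 at 12 h, while most T cell and plasmacytoid DC markers stand far left of 0 at 12 h and between -0.46 and 0.82 at 20 h.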

How the data were processed

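Poly(A) RNA of sorted lymph node DC was sequenced. The submitters' processing notes name bcl2fastq, HISAT 0.1.6, the mouse build mm9 and HOMER. The authors deposited raw counts of reads per gene for the 15 libraries of the 20 h experiment (24411 genes), with a log2 fold change and an adjusted p-value per gene in the authors' deposited table. How that table was fitted is not given in the sources used here. Another deposited table held counts of the 12 h experiment, of which 4 columns, from 2 libraries, matched no sample's labels and were not used here.

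From the counts, edgeR 4.0.16 in R 4.3.3 fitted the 15 libraries with TMM scaling and its own filter on low counts by group, and the quasi-likelihood test compared OVA with BSA, with Benjamini-Hochberg adjustment over all genes tested. A joint fit with the 12 h libraries tested the difference between the experiments. CPM are counts scaled to a library total of 1e+06, and log2 changes are TMM-scaled. Alternatives used DESeq2 1.42.0 and limma 3.58.1, and promoter motifs were searched with Python 3.11.15. The scripts were tested on simulated data.

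The genes, the 38 gene and marker lists and the tests were chosen with earlier results of these data known. A gene of the interferon signalling list, which was left out of that list, and a gene of the B cell list are not reported here. By rule the text names Igtp, Gbp2, Cd274, Wars, Cd40, Cd80, Cd86, Cd83, Ccr7, Il12b, Il15, the member of smallest p in each pathway list and the 2 most abundant members of each marker list. Other genes were named for their role or after their values were seen. Counts over members that passed the filter describe those members and are no test of a list. Depth per library limits precision most for genes of a few CPM.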

Additional observations from a re-analysis of the deposited data

Results flagged for a closer look

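Within groups of 5 libraries, 19 of 156 groups of values held a library whose gap to the nearest other was large beside the range of its group, where chance flags about 1 in 20 groups. Among OVA libraries, Ifng stood at 170 CPM in replicate 4, against 0.638 to 36.9 CPM in the others. In the same library the haemoglobin genes Hbb-b1 and Hbb-bs, whose counts were identical in all 10 OVA and BSA libraries, both stood at 212 CPM, and the Y-linked gene Ddx3y at 143 CPM.

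Among BSA libraries, replicate 1 stood apart for Cd83 at 699.7 CPM (499 to 528 CPM in the others) and for Irf8 at 965 CPM (583 to 689.9 CPM). BSA replicate 3 stood apart for Ifng at 49.8 CPM, against 0.757 to 11.6 CPM in the others.

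Non-immunized replicate 3, the library of fewest counts, stood apart for H2-Ob at 76.3 CPM, Slc2a1 at 32.7 CPM, Mvd at 62.6 CPM, Gzma at 35.4 CPM, Prdm1 at 103 CPM, S100a9 at 43.6 CPM and Batf3 at 659 CPM. Non-immunized replicate 4 stood apart for Cd83 at 529.8 CPM. Non-immunized replicate 5 stood apart for Cd86 at 63.6 CPM, Klrk1 at 41.1 CPM and Ifng at 4.64 CPM, and for Gzmb at 0.663 CPM. The Gzmb value is a single count beside 4 libraries with 0, and any 1 count there would be listed, so it says nothing about that library.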

How the results depend on the processing

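The count of genes called between OVA and BSA, 0, became 2 without a filter on low counts (Igtp and Lyz1) and 2 with DESeq2 on the genes with an adjusted p in the authors' table, a choice made after seeing the data, and ran from 0 to 4 over the fits that left out 1 library, with 4 without OVA replicate 5. It was 0 with DESeq2, DESeq2 size factors, a mean of at least 1 CPM, only the 10 OVA and BSA libraries, a term for Y-linked transcripts, without the OVA libraries marked by them, and, chosen after seeing the data, limma with quality weights, DESeq2 without a filter, edgeR on the authors' genes and without non-immunized replicate 3. Correlations of same-numbered libraries ran from -0.063 to 0.163, and replicates 4 (0.136) and 5 (0.163) passed the level of 0.1 set for pairing. OVA replicate 5 was most like BSA replicate 5, while OVA replicates 1 to 4 were most like a BSA library of another number. These values do not settle whether the numbers pair the samples, and the fit with the replicate number as a block called 0. The count for the difference between 20 h and 12 h, 0, was 1 with DESeq2, 124 without a filter and 0 to 125 over the fits that left out 1 library. The medians of the 5 interferon lists stayed positive in these settings, chosen after seeing the data, from 0.97 to 1.55 for the GTPases, 0.38 to 0.72 for the guanylate-binding proteins and 0.54 to 0.99 for type I interferon-induced genes. Of 52 named genes 36 kept their sign and 16 did not. Klrd1 was 0.066 with DESeq2 and 0.0604 with DESeq2 without a filter, and Batf3 was -0.00864 with edgeR on the authors' genes. Hbb-b1 and Hbb-bs were both -0.12 with the replicate block, -0.55 with the Y-linked term and -3.03 without the Y-marked OVA libraries. With the Y-linked term Prdm1 was -0.19, Ddx3y -0.69 and Eif2s3y -0.0265. Without the Y-marked libraries Il15 was -0.00014, Ifng -0.14, Cd79b 0.021, Klrd1 0.16, H2-Aa 0.0699, Cd74 0.0392, Batf3 -0.00462, S100a4 0.0444 and Ddx3y -0.92. Over the fits that left out 1 library the log2 changes ran from -0.26 to 0.41 for Thy1, -0.0025 to 0.26 for Cd86, -0.091 to 0.0066 for Tmem176b, -0.32 to 0.33 for Klrd1, -0.0399 to 0.10 for Batf3, -1.55 to 0.84 for Hbb-b1, -1.55 to 0.84 for Hbb-bs, -0.23 to 0.031 for H2-Aa and -0.0053 to 0.28 for Prdm1. The cause was not tested. Depth limits the genes of a few CPM.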
